A study of Mus musculus with 6 samples.

Results

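The Toll-like receptors were followed here in mouse marrow cultures, labelled as macrophages, from young and old animals. They were taken as the members of 1 gene family, 10 receptor genes, Tlr1 to Tlr9 and Tlr13, of the 39017 gene identifiers in the deposited count table. The rule uses no measured value, but the family was picked with earlier results of these data known, the uneven Tlr4 counts among them. All 10 passed the filter on low counts and were among the 15567 genes tested. The cells came from wild-type BALB/c mice, 3 weeks old in the young group and over 78 weeks old in the old group. Crushed femora, tibiae and humeri gave the marrow, non-adherent cells were removed, and the adherent cells were grown and described by the submitters as F4/80+ CD169+ macrophages. Each age had 3 libraries, each made from the RNA of 10000 cells with a low-input amplification kit that does not mark the strand, and sequenced as pairs of 100 bp reads. The labels name no agonist, infection or other treatment. Whether the 3 libraries of an age are separate animals is not stated, and each p-value here reflects library-to-library spread, which may be technical.

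Toll-like receptors are membrane proteins that recognise conserved microbial molecules through a leucine-rich ectodomain and signal through a cytoplasmic TIR domain. One set works at the cell surface. Tlr4, with Ly96 (MD-2) and Cd14, recognises lipopolysaccharide. Tlr2 pairs with Tlr1 or Tlr6 to recognise lipopeptides, and Tlr5 recognises flagellin. The other set works in endosomes and reads nucleic acids: Tlr3 double-stranded RNA, Tlr7 and Tlr8 single-stranded RNA or its breakdown products, Tlr9 unmethylated CpG DNA, and Tlr13 a stretch of bacterial ribosomal RNA. Endosomal receptors need the chaperone Unc93b1 to leave the endoplasmic reticulum and are cut by proteases before they signal. Most receptors signal through the adaptor Myd88, Tlr3 signals through Ticam1 (TRIF), and Tlr4 uses both. Macrophages are among the cells known for broad expression of the family.

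Total counts lay between 34391206 and 43367734 per library. Young replicate 3 stood apart from the other 5 libraries on the second principal component, which held 17.7% of the variance. Also given without that library are the receptor calls, the order of levels and the lower calls in each list around the receptors. Marker counts without it are given where they changed. The labelled cell type was checked against 15 macrophage markers, all of which were detected, Adgre1 (F4/80) at 7111 to 18577 counts and Siglec1 (CD169) at 1364 to 4661 counts. Their summed level was 9267 to 10978 CPM (counts scaled to a common library size) in young and 5320 to 5725 CPM in old libraries, and 13 of 15 fell while 1 rose. The summed level of 10 stromal markers was 30818 to 68480 CPM in young, or 30818 to 34262 CPM without young replicate 3, and 23525 to 29633 CPM in old libraries. That sum is mostly collagen mRNA of Col1a1, Col1a2 and Col3a1, none of them called. Of the 10 genes 2 rose (Pdgfra and Cxcl12) and 2 fell (Lum and Lepr), or 3 and 1 without young replicate 3. The stromal sum was above the macrophage sum in every library. Levels here are those of the whole culture, not of macrophages alone. Megakaryocyte markers rose in 5 of 6 (2 of 6 without young replicate 3) and mast cell and basophil markers in 4 of 8. Beside these and the later marker counts, 909 of all 15567 genes tested were called higher and 731 lower (1459 and 1168 without young replicate 3). In bulk RNA, fewer cells of a type and less RNA per cell cannot be told apart. The part of these shifts in the receptor values was not tested.

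Tlr1 and Tlr6 are closely related neighbours on chromosome 5, and single reads from parts of them cannot be assigned to one or the other. Of all 100-base windows in their annotated transcripts, 259 were identical in both genes, which is 7.89% of the windows of Tlr1 and 7.09% of those of Tlr6. These are shares of single windows, and a mate outside them may still place a read pair. These windows fell into 3 identical coding runs of 119, 229 and 208 bases. The longest is shown because a read lying inside it carries by itself no information on its source. It spans coding bases 1468 to 1696 of 2385 in Tlr1 and 1507 to 1735 of 2418 in Tlr6. The sequences below were read 5′ to 3′ on the coding strand from GENCODE mouse release M21 transcripts (build mm10, GRCm38), with the identical run in capitals and 15 flanking bases on each side in lower case.
Tlr1: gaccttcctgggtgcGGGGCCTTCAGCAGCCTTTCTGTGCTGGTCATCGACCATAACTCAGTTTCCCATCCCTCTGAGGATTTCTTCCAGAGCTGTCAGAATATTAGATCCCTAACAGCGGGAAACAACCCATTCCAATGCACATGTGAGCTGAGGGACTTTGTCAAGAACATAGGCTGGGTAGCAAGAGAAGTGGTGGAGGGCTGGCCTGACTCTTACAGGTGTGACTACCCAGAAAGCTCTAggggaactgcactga
Tlr6: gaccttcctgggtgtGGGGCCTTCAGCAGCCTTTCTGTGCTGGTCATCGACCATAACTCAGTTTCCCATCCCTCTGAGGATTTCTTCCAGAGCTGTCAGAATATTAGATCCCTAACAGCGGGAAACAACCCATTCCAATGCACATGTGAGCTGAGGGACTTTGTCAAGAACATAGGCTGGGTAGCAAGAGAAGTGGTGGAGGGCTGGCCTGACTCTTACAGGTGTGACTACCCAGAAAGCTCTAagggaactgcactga
The last upstream base and the first downstream base differ between the genes, which is where the run ends. No such 100-base window was shared with another gene by Tlr2, Tlr4, Tlr5, Tlr7, Tlr8, Tlr9 or Tlr13. Tlr3 shared 3.32% of its windows with the overlapping gene model Gm45542, which covers 7.32% of its exon length.

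Of the 10 receptors only Tlr2 and Tlr7 passed the test, and both were lower in the old cultures. Tlr2 was 2.05-fold and Tlr7 2.12-fold lower. No receptor was called higher. The fitted log2 fold change was negative for all 10, against 51.5% of all genes tested, but that of Tlr1, Tlr3, Tlr4 and Tlr6 turned positive on leaving out 1 library. The 2 called lower among 10 compare with 4.7% of all genes tested that were called lower and 10.5% called in either direction (edgeR quasi-likelihood test, Benjamini-Hochberg adjusted p under 0.05 over all genes). The median log2 fold change, old minus young, was -0.40 over the 10 receptors (-0.69 with 3 called lower without young replicate 3) and -0.01 over all genes tested. In 5 of the 10, Tlr2, Tlr5, Tlr7, Tlr8 and Tlr9, every old library lay below every young one in CPM. That pattern held for 14.3% of all genes, and 30.2% of all genes had ranges that did not overlap in either direction. At an unadjusted p under 0.05, 5 of the receptors were lower and 0 higher, against 11.1% of all genes lower at that threshold.

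**Figure D1:**
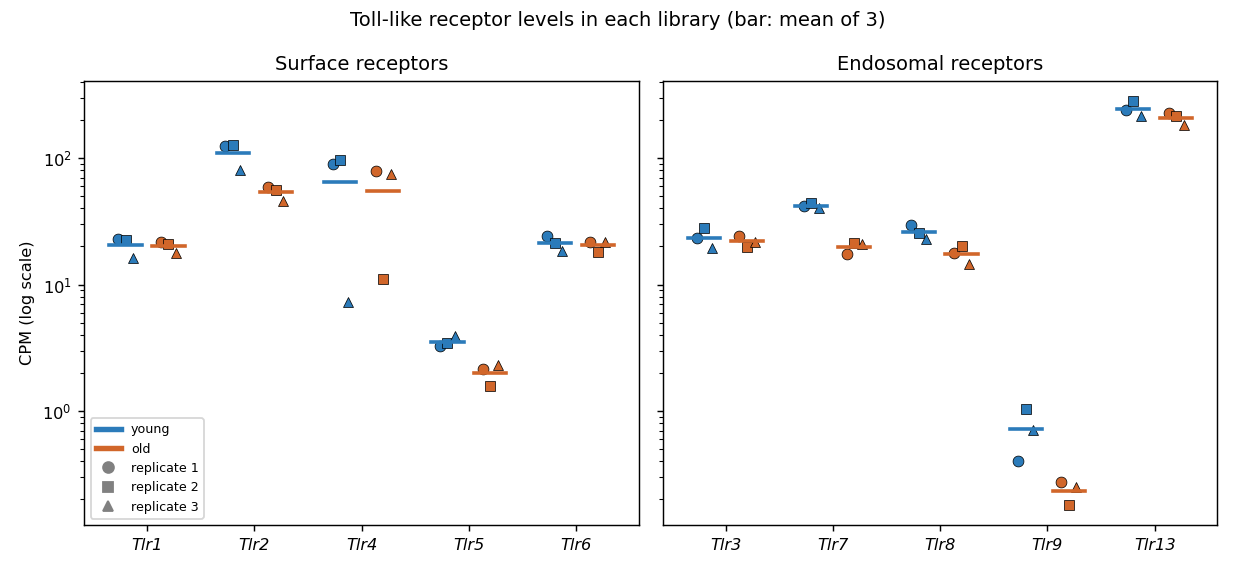
CPM on a log axis for each of the 10 receptors, surface on the left and endosomal on the right, in 3 young (blue) and 3 old (orange) libraries, with replicate number as the symbol and a bar at the mean. Tlr2 and Tlr7 sit lower in all 3 old libraries, and Tlr4 has 1 library far below the other 2 at each age.

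Among the surface receptors, only Tlr2 passed the test. Tlr2 (ENSMUSG00000027995, chr3:83836272-83841767, minus strand) was counted 4363, 4473 and 2688 times in young replicates 1, 2 and 3, against 2580, 2168 and 1654 times in the old ones. Scaled to library size these were 125, 127 and 79.9 CPM in young and 58.9, 56.3 and 45.9 CPM in old libraries. Young replicate 3 was lowest of its age but remained above every old library. Mean levels were 110 ± 26.4 CPM in young and 53.7 ± 6.85 CPM in old (SD, n = 3 each), a log2 fold change of -1.04 (SE 0.19, 95% interval -1.49 to -0.59, edgeR adjusted p = 0.0162). Without young replicate 3 the change was -1.22 with an edgeR adjusted p of 0.00109. Leaving out any of the other 5 libraries ended the call, with edgeR adjusted p-values from 0.0514 to 0.0643.

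Tlr1 and Tlr6, the partners that Tlr2 needs to bind lipopeptides, did not pass the test. Tlr1 (ENSMUSG00000044827, chr5:64924679-64933563, minus strand) gave 805, 790 and 549 counts at the young age and 954, 808 and 636 at the old age. Mean levels were 20.5 ± 3.68 CPM against 20.1 ± 2.18 CPM (SD, n = 3 each; log2 fold change -0.03, SE 0.16, 95% interval -0.41 to 0.35, edgeR adjusted p = 0.946). That interval allows at most a fall by 0.41 on the log2 scale. Tlr6 (ENSMUSG00000051498, chr5:64952031-64960097, minus strand) gave 842, 758 and 622 counts at the young age and 948, 699 and 785 at the old age, with means of 21.3 ± 2.78 and 20.5 ± 2.06 CPM (log2 fold change -0.05, SE 0.14, 95% interval -0.38 to 0.27, edgeR adjusted p = 0.868). The ranges of both genes overlapped between the ages. Because of the shared windows their sum is the safer value, and it came to 41.9 ± 6.33 and 40.7 ± 2.38 CPM (SD, n = 3 each).

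Tlr5, the flagellin receptor, was scarce. Tlr5 (ENSMUSG00000079164, chr1:182954788-182976044, plus strand) gave 115, 121 and 132 counts in the young libraries, against 94, 61 and 83 in the old ones. The groups did not overlap in CPM, at 3.28, 3.42 and 3.92 in young and 2.15, 1.58 and 2.30 in old. Means of 3.54 ± 0.337 and 2.01 ± 0.379 CPM (SD, n = 3 each) gave a log2 fold change of -0.82 (SE 0.22, 95% interval -1.33 to -0.30), which missed the threshold in edgeR (adjusted p = 0.0612) and passed it in DESeq2 (adjusted p = 0.0231).

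Tlr4, the lipopolysaccharide receptor, could not be compared between ages in any useful way because its counts jumped between libraries of the same age. Tlr4 (ENSMUSG00000039005, chr4:66827584-66930284, plus strand) was counted 3130, 3423 and 245 times in young replicates 1, 2 and 3, against 3444, 427 and 2683 times in old replicates 1, 2 and 3. The low libraries were young replicate 3 and old replicate 2, so the jump did not follow age. The mean CPM of young replicates 1 and 2 was 12.8 times that of young replicate 3, and the mean of old replicates 1 and 3 was 6.90 times that of old replicate 2. The group means of 64.5 ± 49.7 and 54.7 ± 37.8 CPM (SD, n = 3 each) gave a log2 fold change of -0.24 with an SE of 0.97 (95% interval -2.55 to 2.08, edgeR adjusted p = 0.923). The interval spans large changes in either direction. Leaving out single libraries moved the log2 fold change from -0.77 without young replicate 3 to 0.25 without old replicate 2.

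Other genes with such a jump were listed as a description. The threshold was set with the Tlr4 values known, so that Tlr4 meets it is no finding. Listed were genes whose gap was at least 2 on the log2(CPM + 1) scale between neighbouring libraries of one age, among the 11168 genes with a mean of at least 5 CPM. The gaps of Tlr4 were 3.45 in young and 2.64 in old. Among the other receptors with that mean level, the largest gap was 0.63, that of Tlr2 in young. A jump at either age occurred in 60 genes (0.537%), and at both ages in 15 genes including Tlr4. The low libraries differed from gene to gene. C5ar1, the receptor for the complement fragment C5a, was at 14.9, 202 and 18.0 CPM in young and 12.7, 174 and 10.8 CPM in old replicates 1, 2 and 3. Pygo2, a cofactor of Wnt signalling, was at 15.1, 116 and 128 CPM in young and 19.7, 20.3 and 123 CPM in old. Repin1, a zinc finger protein gene, was at 30.8, 3.85 and 21.8 CPM in young and 3.65, 28.1 and 25.2 CPM in old. These 3 genes were picked after their values were seen. No exon of Tlr4 overlaps another annotated gene. What separates the low from the high Tlr4 libraries was not tested.

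Among the endosomal receptors, only Tlr7 passed the test. Tlr7 (ENSMUSG00000044583, chrX:167304929-167330558, minus strand), which reads single-stranded RNA, gave 1469, 1550 and 1353 counts in the young libraries, against 763, 824 and 748 in the old ones. In CPM these were 41.9, 43.9 and 40.2 against 17.4, 21.4 and 20.8. The spread within each age was far smaller than the distance between the ages. Means of 42.0 ± 1.82 and 19.9 ± 2.14 CPM (SD, n = 3 each) gave a log2 fold change of -1.08 (SE 0.11, 95% interval -1.34 to -0.82, edgeR adjusted p = 0.00173). The call held on leaving out any single library, with edgeR adjusted p-values from 0.00155 to 0.0105.

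Tlr8 (ENSMUSG00000040522, chrX:167242696-167264329, minus strand), the relative of Tlr7 on the same strand of chromosome X, was lower in every old library than in any young one. Counts were 1030, 901 and 777 at the young age against 784, 778 and 519 at the old age, or 29.4, 25.5 and 23.1 CPM against 17.9, 20.2 and 14.4 CPM. Means were 26.0 ± 3.18 and 17.5 ± 2.91 CPM (SD, n = 3 each), a log2 fold change of -0.57 (SE 0.16, 95% interval -0.94 to -0.20). The difference missed the threshold in edgeR (adjusted p = 0.0660), passed it without young replicate 3 (edgeR adjusted p = 0.0362) and passed it in DESeq2 (adjusted p = 0.0124). Whether Tlr7 and Tlr8 changed by different amounts was not tested. Their 95% intervals share the stretch from -0.94 to -0.82.

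Tlr9 (ENSMUSG00000045322, chr9:106222598-106226883, plus strand), the receptor for CpG DNA, was the scarcest of the 10 receptors, counted 14, 37 and 24 times in the young libraries and 12, 7 and 9 times in the old ones. These were 0.400, 1.05 and 0.713 CPM in young and 0.274, 0.182 and 0.250 CPM in old, without overlap. The log2 fold change was -1.60 (SE 0.49, 95% interval -2.76 to -0.44) and missed the threshold (edgeR adjusted p = 0.0928). B cells and plasmacytoid dendritic cells are known for high Tlr7 and Tlr9 expression, so their markers are given beside these genes. Of 8 tested B cell markers 7 rose and 0 fell (6 and 0 of 9 without young replicate 3). Their summed level went from 103 to 122 CPM in young to 247 to 380 CPM in old. It was mostly Ighm, at 51.9 CPM in young and 185 CPM in old, and Ebf1, at 50.8 and 86.9 CPM. Of 8 tested plasmacytoid dendritic cell markers 2 rose and 3 fell (3 and 3 without young replicate 3). Their sum went from 242 to 253 CPM in young to 164 to 199 CPM in old. It was mostly Bst2, Tcf4 and Runx2, the 3 that fell with all libraries. Means of these were 104, 95.8 and 45.1 CPM in young and 66.5, 70.5 and 30.6 CPM in old. The 2 that rose with all libraries were Ly6d, from a mean of 0.373 to 5.11 CPM, and Spib, from 0.805 to 2.88 CPM. The defining marker Siglech had 0 to 6 counts per library. The part of B cells and plasmacytoid dendritic cells in the Tlr7 and Tlr9 values was not tested.

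Tlr3 (ENSMUSG00000031639, chr8:45395665-45411080, minus strand), the receptor for double-stranded RNA, was counted 812, 985 and 657 times in the young libraries, against 1068, 760 and 780 times in the old ones. Its ranges overlapped, at means of 23.5 ± 4.18 and 21.9 ± 2.33 CPM (SD, n = 3 each; log2 fold change -0.10, SE 0.16, 95% interval -0.47 to 0.26, edgeR adjusted p = 0.767). Tlr13 (ENSMUSG00000033777, chrX:106143204-106160493, plus strand), which reads bacterial ribosomal RNA and is a mouse gene without a human counterpart, had the most counts of the family. The young libraries held 8372, 9945 and 7227 of them and the old ones 9888, 8250 and 6619. Means were 245 ± 33.7 and 208 ± 21.6 CPM with overlapping ranges (log2 fold change -0.24, SE 0.12, 95% interval -0.53 to 0.05, edgeR adjusted p = 0.311). Of the mouse receptors outside the 10, Tlr11 had 0 counts in all 6 libraries, which allows up to 0.0892 CPM in the library with the smallest scaled size, young replicate 3, by counting error alone. Tlr12 was counted 26, 14 and 0 times in the young libraries against 0, 7 and 12 times in the old ones, too few and too scattered to compare.

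**Figure D2:**
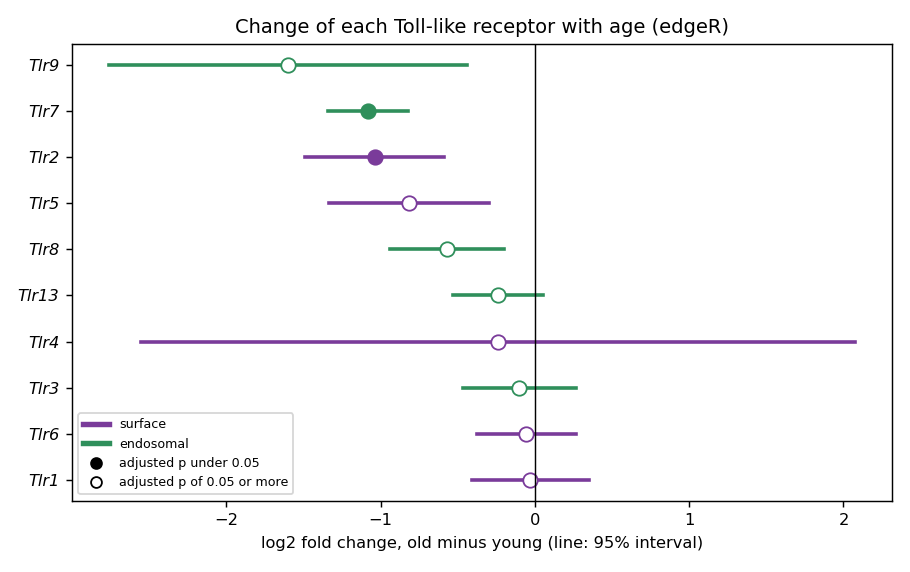
Log2 fold change, old minus young, of the 10 receptors with its 95% interval from edgeR, surface receptors in purple and endosomal ones in green, with filled points for an adjusted p under 0.05. Only Tlr7 and Tlr2 are filled, and the interval of Tlr4, from -2.55 to 2.08, is wider than the rest.

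Levels of different receptors were compared as CPM per kilobase of merged exon length. For Tlr4 that length was 5556 bases against 4077 in its longest transcript, and for Tlr2 both were 3014. A shorter length would raise Tlr4 against Tlr2, and orders and class sums under another length were not computed. In young cultures Tlr13 was highest, at 56.9 ± 7.83 CPM per kilobase, followed by Tlr2 at 36.6 ± 8.75 (SD, n = 3 each). These ranges did not overlap. Tlr4 at 11.6 ± 8.94 could not be separated from Tlr7 at 10.3 ± 0.446. Tlr7 was above Tlr8 at 7.25 ± 0.888 without overlap, and Tlr8, Tlr1 (6.14 ± 1.10), Tlr6 (5.72 ± 0.745) and Tlr3 (4.52 ± 0.803) each overlapped the next. Tlr5 at 0.740 ± 0.0703 and Tlr9 at 0.207 ± 0.0931 stood below all of them. Without young replicate 3 the order was the same, and Tlr4, at 16.1 and 17.4 in the remaining libraries, lay above Tlr7 at 10.3 and 10.7 CPM per kilobase.

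In old cultures the top and the bottom of the order were the same, with Tlr13 at 48.3 ± 5.02, Tlr2 at 17.8 ± 2.27, Tlr5 at 0.420 ± 0.0790 and Tlr9 at 0.0676 ± 0.0137 CPM per kilobase (SD, n = 3 each). The middle differed. Tlr7, next after Tlr4 in young cells, came after Tlr1, Tlr6 and Tlr8 by mean in old cells, at 4.87 ± 0.525 and overlapped its neighbours Tlr8 (4.88 ± 0.813) and Tlr3 (4.21 ± 0.447). Tlr1 at 6.02 ± 0.652 and Tlr6 at 5.51 ± 0.553 had larger means than Tlr8 and Tlr7. From Tlr4 (9.85 ± 6.81) down to Tlr3, no receptor was separated from its neighbour by more than the spread of its libraries.

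The classes were compared by summing the level per kilobase over the 5 surface and the 5 endosomal receptors, without a test, since the receptors were chosen with results known. Surface receptors summed to 71.4, 72.6 and 38.5 in young and 46.4, 32.1 and 40.3 CPM per kilobase in old replicates 1, 2 and 3. These overlapped, and the lowest sums were in young replicate 3 and old replicate 2, the libraries with low Tlr4. Endosomal receptors summed to 78.6, 88.9 and 70.1 in young and 66.4, 64.5 and 56.0 CPM per kilobase in old, without overlap. The surface share of the total was 42.7% ± 6.41 in young and 38.7% ± 4.75 in old (SD, n = 3 each), with overlapping ranges of 35.4% to 47.6% and 33.3% to 41.8%.

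Leaving out Tlr4, a choice made after its values were seen, separated the ages. The surface sum was then 55.3, 55.1 and 37.2 in young and 32.3, 30.1 and 26.8 CPM per kilobase in old. The surface share was 38.1% ± 3.35 in young and 32.3% ± 0.430 in old (SD, n = 3 each), at 41.3%, 38.3% and 34.6% against 32.7%, 31.9% and 32.4%. Tlr13 made up 70.7% to 78.9% of the endosomal sum. Tlr2 made up 57.9% to 68.9% of the surface sum in the young libraries and 42.1%, 58.1% and 37.9% in the old ones, where Tlr4 made up 30.5%, 6.21% and 33.3%. Leaving out Tlr2 and Tlr13, the largest contributors by mean, gave surface shares of 56.6%, 56.5% and 37.1% in young and 65.8%, 47.8% and 65.2% in old. Their means, 50.1% ± 11.2 and 59.6% ± 10.2 (SD, n = 3 each), reverse the order seen with all 10 receptors, but the ranges overlap and the lowest value of each age is the library with low Tlr4. Without Tlr13 the endosomal sum was 22.3 ± 1.76 in young and 14.0 ± 0.689 CPM per kilobase in old, and Tlr13 alone made up 41.2% ± 4.50 of all receptor mRNA per length in young and 47.4% ± 3.68 in old. By median log2 fold change the classes stood at -0.24 (surface) and -0.57 (endosomal), with 1 of 5 receptors called lower in each. The surface median is the value of Tlr4 itself, whose counts jumped between libraries of one age, so the medians give no useful contrast of the classes. Whether the classes changed differently was not tested.

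**Figure D3:**
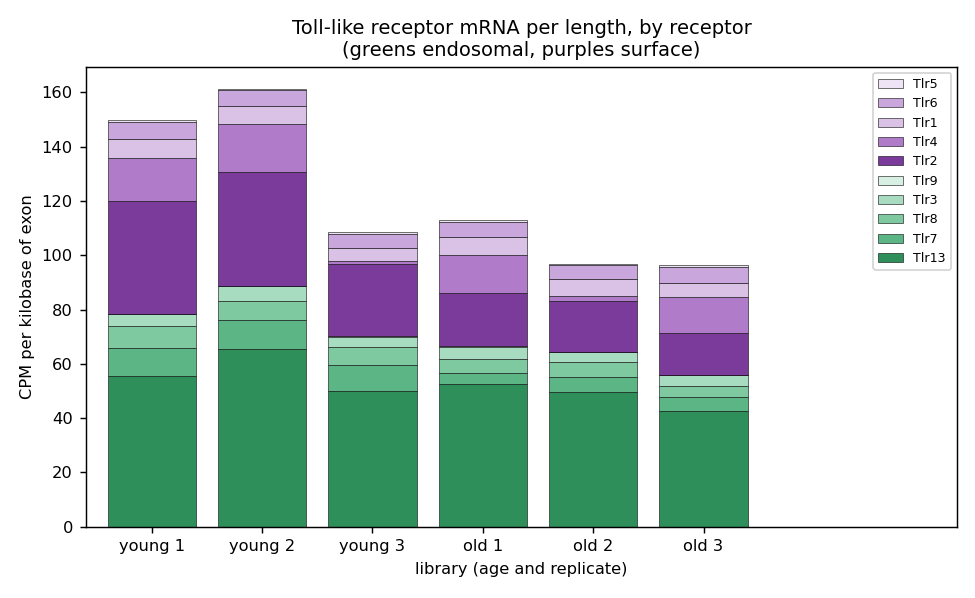
Stacked bars of CPM per kilobase of exon for the 10 receptors in each of the 6 libraries, endosomal receptors in greens at the bottom and surface receptors in purples above. Tlr13 is the largest segment in every library, Tlr2 is smaller in the old ones, and the Tlr4 segment nearly vanishes in young replicate 3 and old replicate 2.

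Because macrophage markers fell in the old cultures, each receptor was also set against summed marker counts, a measure chosen after the data were seen and given without a test. Per 1000 counts of 12 leukocyte markers, Tlr2 was 35.2 ± 8.52 in young and 21.3 ± 2.22 in old, 1.65-fold lower, and Tlr7 was 13.4 ± 0.821 and 7.92 ± 1.02, 1.70-fold lower (SD, n = 3 each). Neither overlapped between the ages on that scale. Its own sum was 2919 to 3412 CPM in young and 2447 to 2585 CPM in old. Of the 12 genes 5 were lower and 0 higher (8 and 0 without young replicate 3). Tlr5 and Tlr9 did not overlap on that scale either, at old to young ratios of 0.706 and 0.415. Tlr8 (0.833) overlapped, as did Tlr1, Tlr3, Tlr4, Tlr6 and Tlr13 (1.06 to 1.22). Per 1000 counts of the 15 macrophage markers, Tlr2 was 11.2 ± 3.38 and 9.79 ± 1.13, and Tlr7 was 4.20 ± 0.470 and 3.64 ± 0.522, both with overlapping ranges. Dividing by a sum that itself fell raises the old to young ratio of every gene by a similar factor, so a receptor near no change in CPM comes out above 1 on the macrophage scale by construction. The ratios there were 1.77 for Tlr1, 1.74 for Tlr6, 1.69 for Tlr3 and 1.54 for Tlr13, whose ranges did not overlap, and 1.48 for Tlr4, 1.22 for Tlr8 and 1.04 for Tlr5, whose ranges did. Tlr9 stayed under 1, at 0.601, with overlapping ranges. Tlr5 and Tlr8, lower in every old library by CPM, were therefore not lower per macrophage marker count. The macrophage sum is carried mostly by Lyz2, at 110671 to 241062 counts per library, and 13 of its 15 genes were themselves called lower.

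**Figure D4:**
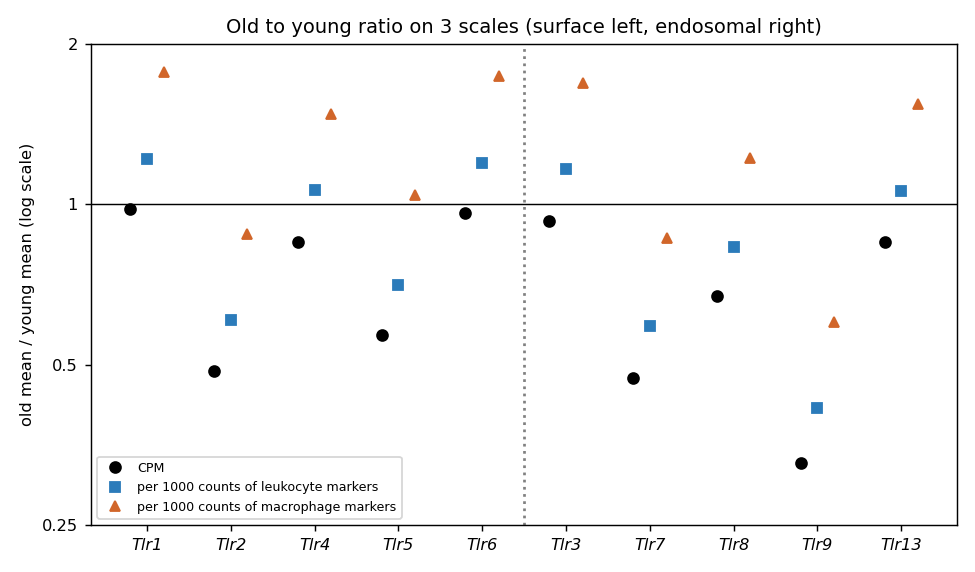
Ratio of the old to the young mean on a log axis for each receptor, by CPM (black circles), per 1000 counts of 12 leukocyte markers (blue squares) and per 1000 counts of 15 macrophage markers (orange triangles), surface receptors left of the dotted line. Tlr2, Tlr7 and Tlr9 lie under 1 on all 3 scales, whereas the other 7 lie under 1 by CPM and above 1 per macrophage marker count.

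For each receptor the 3 genes with the most similar profile were listed, by the root mean square difference of centred log2(CPM + 1) values over the 6 libraries, among genes with a mean of at least 5 CPM. These are descriptions over 6 libraries. Nearest to Tlr2 were C1qa, a subunit of complement C1q (0.0700), Gatm, an enzyme of creatine synthesis (0.0772), and Adgre1, the F4/80 antigen gene (0.0835), against a spread of 0.556 of Tlr2 around its own mean. C1qa stood at 389, 358 and 264 CPM in young and 183, 166 and 144 CPM in old libraries, with young replicate 3 lowest of its age like Tlr2. Nearest to Tlr7 were Tifab (0.0803), Ncf1, a subunit of the phagocyte NADPH oxidase (0.0867), and B3gnt7 (0.115). Ncf1 was at 126, 136 and 118 CPM in young and 61.7, 62.2 and 64.2 CPM in old. Tlr8 was nearest to AB124611 (0.0772), Slc7a7 (0.0841) and Tnfaip8l2 (0.0875). Tlr5 was nearest to the death receptor gene Fas (0.0504). Tlr4 had no near match: its nearest gene, Gm14176, differed by 0.987 against a spread of 1.47 of Tlr4 itself.

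Of 9 co-receptors, ligand carriers and related regulators of the receptors, 5 were lower and 1 higher, with a median log2 fold change of -0.52. For this and the lists below, 4.7% of all genes tested were called lower and 10.5% in either direction. The 5 were Cd14, Cd180 and its partner Ly86, Itgam and Nrros, of which Cd14 is the one known for handing ligand to the receptors. Cd14, which passes lipopolysaccharide to Tlr4 and lipopeptide to Tlr2, was at 294, 331 and 264 CPM in young and 205, 214 and 189 CPM in old libraries. Its means were 296 ± 33.5 and 203 ± 12.4 CPM (SD, n = 3 each; log2 fold change -0.55, edgeR adjusted p = 0.0166). Ly96, the MD-2 subunit of the Tlr4 complex, was at 10.8 ± 1.78 and 9.65 ± 0.440 CPM and was not called (log2 fold change -0.16, edgeR adjusted p = 0.600). Cd180, a Tlr4-like receptor without a TIR domain, went from 19.2 to 12.5 CPM (log2 fold change -0.61, edgeR adjusted p = 0.0324). Itgam, the CD11b integrin chain, fell from 198 to 128 CPM (edgeR adjusted p = 0.00401), though 68.7% of its exon length overlaps the gene model Gm49368. Cd36, a scavenger receptor that assists Tlr2 with Tlr6, rose from 294 ± 37.7 to 577 ± 26.8 CPM (SD, n = 3 each; log2 fold change 0.97, edgeR adjusted p = 0.00233). The calls of Cd36 and Itgam held without any single library. That of Cd14 was lost without young replicate 1 or any old replicate (edgeR adjusted p up to 0.0761), and that of Cd180 without any library but young replicate 3 (up to 0.120). The count of lower co-receptors ranged from 1 to 5 over the left-out libraries and was 5 without young replicate 3.

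Genes listed for trafficking and proteolytic maturation of the receptors, surface or endosomal, were mostly not called. Of 14 tested, 1 was higher and 2 were lower, with a median log2 fold change of -0.10. Unc93b1, the chaperone of the endosomal receptors, went from 429 ± 36.6 to 311 ± 14.4 CPM (SD, n = 3 each), with young libraries at 391 to 465 and old at 296 to 325. Its log2 fold change was -0.46 (edgeR adjusted p = 0.0179), and the call was lost without any library but young replicate 3 (edgeR adjusted p up to 0.0848). Leaving out 1 library gave 1 to 2 higher and 1 to 2 lower, and 2 of each without young replicate 3. Of 5 listed proteases that can cut the receptors, Ctsb, Ctsk and Ctss were not called (log2 fold changes -0.15, 0.50 and -0.03). Ctsl (cathepsin L) rose from 976 ± 206 to 2981 ± 63.1 CPM (log2 fold change 1.61, edgeR adjusted p = 0.00133), with 26.8% of its exon length overlapping Gm47123. Lgmn (legumain) fell from 748 ± 42.1 to 516 ± 18.9 CPM (log2 fold change -0.54, edgeR adjusted p = 0.00677).

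None of the 24 tested adaptors and proximal kinases passed the threshold, with a median log2 fold change of -0.07. Leaving out 1 library gave 0 to 1 higher and 0 to 2 lower, the most without young replicate 3. Myd88 stood at 120, 125 and 118 CPM in young and 143, 144 and 143 CPM in old libraries. The groups did not overlap, and the log2 fold change of 0.24 (SE 0.066) missed the threshold in edgeR (adjusted p = 0.0624), passing it in DESeq2 (adjusted p = 0.0131) and in edgeR without young replicate 3 (adjusted p = 0.0422). Myd88 shares 11.3% of its exon length with Acaa1a. Ticam2 (TRAM), the bridging adaptor that Tlr4 uses to reach Ticam1, had a log2 fold change of -0.70, at 16.0 ± 3.83 and 9.84 ± 1.60 CPM (edgeR adjusted p = 0.0830). It passed in DESeq2 (adjusted p = 0.0187) and without young replicate 3 (edgeR adjusted p = 0.0238), and 14.5% of its exon length overlaps Tmed7. Ticam1 was at 16.5 and 17.0 CPM and Tirap, the bridge to Myd88, at 18.2 and 17.4 CPM in young and old, with edgeR adjusted p-values of 0.889 and 0.855. Ube2n, a ubiquitin-conjugating enzyme that acts with Traf6, was at 192 and 182 CPM (edgeR adjusted p = 0.679).

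Transcription factors downstream of the receptors numbered 15, of which 3 were called higher and 2 lower, with a median log2 fold change of -0.22. The count of lower calls ranged from 0 to 2 on leaving out 1 library, and was 2 without young replicate 3. Irf7, which drives type I interferon genes after Tlr7 or Tlr9 signalling, fell from 113 ± 13.7 to 59.5 ± 17.1 CPM (SD, n = 3 each; log2 fold change -0.93, edgeR adjusted p = 0.0292). This call did not survive leaving out young replicate 1 or 2, or old replicate 1 or 2 (edgeR adjusted p up to 0.117). Atf3, a stress-induced repressor of Toll-like receptor targets, rose (log2 fold change 0.70, edgeR adjusted p = 0.00342), as did Cebpd (0.75, adjusted p = 0.00161), and both held without any single library. Cebpb rose (0.87, edgeR adjusted p = 0.0449), a call lost without any library but young replicate 2, with edgeR adjusted p up to 0.158. Of 24 negative regulators 3 rose and 6 fell, with a median log2 fold change of -0.03. The count that fell ranged from 1 to 7 on leaving out 1 library, with 7 without young replicate 3. Socs3, an inhibitor of cytokine signalling, rose from 195 ± 15.8 to 386 ± 20.4 CPM (log2 fold change 0.99, edgeR adjusted p = 0.00118). Axl, a receptor tyrosine kinase that dampens inflammatory signalling, rose (0.55, edgeR adjusted p = 0.00778), and Inpp5d, a lipid phosphatase, fell (-0.60, edgeR adjusted p = 0.0109).

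Among 31 tested inducible targets of Toll-like receptor signalling 8 fell and 2 rose, with a median log2 fold change of -0.54. The falls with the smallest p were those of Saa3, an acute-phase protein gene, and Acod1, the enzyme that makes itaconate. Saa3 was at 70.7, 63.5 and 25.6 CPM in young and 5.16, 1.90 and 3.19 CPM in old libraries (log2 fold change -3.95, SE 0.50, edgeR adjusted p = 0.00377). Acod1 was at 33.4, 39.4 and 13.3 CPM in young and 1.28, 1.79 and 3.28 CPM in old (log2 fold change -3.77, SE 0.51, edgeR adjusted p = 0.00501). In both genes young replicate 3 was lowest of its age and still above every old library. Il6, a pro-inflammatory cytokine, moved the other way, from 1.31, 1.39 and 0.624 CPM in young to 5.59, 4.23 and 5.11 CPM in old (log2 fold change 2.16, SE 0.32, edgeR adjusted p = 0.00762). Il1rn, the secreted antagonist of interleukin-1, rose from 186 ± 31.7 to 519 ± 57.1 CPM (SD, n = 3 each; log2 fold change 1.48, edgeR adjusted p = 0.00146). These 4 calls held without any single library, while the number of targets called lower ranged from 3 to 13, with 13 without young replicate 3. Neutrophils also express several of these targets. The sum of 10 neutrophil markers was 1104 to 2022 CPM in young and 731 to 1376 CPM in old libraries. Of the 10 markers 1 was lower, or 2 without young replicate 3. The part of neutrophils in the target values was not tested.

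Other families of pattern recognition receptors were compared as a reference for the Toll-like receptors, and 6 of 20 fell and 1 rose, with a median log2 fold change of -0.43. Leaving out 1 library moved the lower count from 1 to 8, with 8 without young replicate 3, and the higher count from 0 to 1. Marco, a scavenger receptor for bacteria, fell from 7.19 ± 2.31 to 0.360 ± 0.341 CPM (log2 fold change -4.35, edgeR adjusted p = 0.0101), a call lost without old replicate 2 (edgeR adjusted p = 0.0549). Dhx58 (LGP2), a cytoplasmic sensor of viral RNA, fell from 41.7 ± 2.22 to 22.6 ± 2.37 CPM (log2 fold change -0.88, edgeR adjusted p = 0.00342). Nlrp3, the inflammasome sensor, fell (-1.07, edgeR adjusted p = 0.0247), a call lost without any library but young replicate 3 (edgeR adjusted p up to 0.105). Clec7a (Dectin-1), the receptor for fungal beta-glucan, rose from 14.6 ± 7.28 to 52.6 ± 14.2 CPM (log2 fold change 1.85, edgeR adjusted p = 0.0251), which no longer passed when young replicate 1 or any old replicate was left out (up to 0.0866). Over all 7 lists around the receptors, 28 of 134 distinct tested genes were lower and 10 higher, with a median log2 fold change of -0.21. Of all 15567 genes tested, 731 were lower and 909 higher, with a median of -0.01. Without young replicate 3 the lists held 38 lower and 13 higher of 135, and all genes tested held 1168 lower and 1459 higher.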

How the data were processed

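The authors deposited raw counts, whole numbers per Ensembl gene, for 3 young and 3 old libraries, which were grouped by the labels. Per the submitters' processing notes, the build was mm10 and the tools, listed without roles, were StringTie 1.3.4d, STAR 2.6.1a, HISAT2 2.1.0, Trim Galore 0.50, cutadapt 1.18, SAMtools 1.9 and Picard 2.18.15. Which tool counted, with which annotation, strand setting and rule for reads that match several places, is not given in the sources used here, so genes that overlap or resemble another may share or lose reads. Symbols were matched to 37607 of 39017 identifiers. Replicates of an age differed by more than sampling noise. Amplified reads carry no molecular identifiers, so a limit from a count of 0 (3 counts) covers counting error only.

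Tests used edgeR 4.0.16 in R 4.3.3 (filterByExpr, TMM, robust quasi-likelihood test, age as the only term), and p-values were adjusted by Benjamini-Hochberg over 15567 genes with calls at 0.05. Fold changes are given as old minus young on the log2 scale, and the SE is the absolute change divided by the square root of F. CPM uses TMM-scaled library sizes, and lengths are merged exon lengths from GENCODE M21. The procedure was tested on simulated data. It called 94.4% of genes simulated at a fold of 0.25, 47.5% at 0.5, 20% at 1.5, 50% at 2 and 85% at 4. Of all its calls 6.5% were false. In that simulation 15153 of the 15349 genes tested were unchanged, so these rates need not hold for the real data. A gene not called may still have changed. Alternatives were other scalings, DESeq2 1.42.0, limma 3.58.1 voom, other filters, a non-robust dispersion, a replicate block and leaving out each library. No receptor failed the filter, so the permutation test planned for such genes had no subject. Named genes were the receptors, their direct partners (Myd88, Tirap, Ticam1, Ticam2, Unc93b1, Cd14, Ly96 and Cd180), up to 4 genes per list with the smallest p among those called (or the 2 most abundant where none was), and 3 profile neighbours per receptor. Receptors and lists were chosen with earlier results of these data known. One listed adaptor, Tasl, matched no identifier.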

Additional observations from a re-analysis of the deposited data

How the results depend on the processing

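Every receptor kept its side of the edgeR threshold and its direction under the other scalings, filters and dispersion estimates that tested it. The filter of at least 50 counts in 3 libraries removed Tlr9, which has no result there. DESeq2 called 4 receptors lower (adding Tlr5 and Tlr8) and 1137 genes lower in all, against 731 with edgeR, and limma-voom gave Tlr4 a log2 fold change of 0.0068. Leaving out 1 library at a time, genes called ranged from 418 to 1459 higher and 294 to 1168 lower, receptors from 0 to 0 higher and 1 to 3 lower, and genes of the lists from 8 to 13 higher and 8 to 38 lower, the last highest without young replicate 3. Log2 fold changes then crossed 0 for Tlr1 (-0.17 to 0.058), Tlr3 (-0.22 to 0.037), Tlr4 (-0.77 to 0.25), Tlr6 (-0.15 to 0.039), Ticam1 (-0.044 to 0.13) and Tirap (-0.15 to 0.075). The surface share ranged from 40.2% to 46.3% in young and 37.2% to 41.5% in old. Without Tlr2 and Tlr13 it was 50.1% and 59.6%, and without Tlr4, chosen after seeing the data, 32.3% in old. The cause was not tested.

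Same-numbered libraries had correlated deviations of 0.129, 0.034 and 0.158, and 0.158 and 0.129 were the largest values of any young and old pair. Young replicate 2 correlated best with old replicate 1, at 0.078. These values do not decide whether the numbers pair libraries. The main test did not pair them because no pairing is stated. A replicate block gave 711 genes higher and 575 lower, 0 receptors higher and 2 lower (Tlr7, adjusted p = 0.00724, and Tlr2, adjusted p = 0.00732), and 8 genes of the lists higher and 21 lower. It ended the calls of Cebpb, Clec7a and Irf7 and brought Ticam2 past the threshold, and Cebpb also lost its call with no low-count filter (adjusted p = 0.0501). Depth was lowest for Tlr9, at 7 to 37 counts per library, and its SE of 0.49 was exceeded among the 10 by that of Tlr4, with 245 to 3444 counts.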
